A study of Danio rerio with 3 samples.

Results

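The cytosolic ribosomal protein genes are the genes whose products build the large and the small subunit of the ribosome outside the mitochondria. They were taken by symbol (rpl or rps followed by a number, rplp0, rplp1, rplp2 and rplp2l, and rpsa), without the S6 kinase genes and other genes whose symbols only start in the same way. Of 32057 genes in the files, 83 met this rule, 47 of the large and 36 of the small subunit. Many are listed under the human symbol, and 8 of them form 4 pairs under 1 symbol, which are told apart by their identifiers. The gene fau makes a ribosomal protein as a fusion and misses the rule, and so does the gene listed as RPSA2 (ENSDARG00000019181), with 8752 RPM in the gata2a+ runx1+ library, 10748 RPM in the gata2a- runx1+ library and 7105 RPM in the gata2a+ runx1- library. Both are left out below. By its symbol RPSA2 would belong to the small subunit.

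Cells came from the kidney of adult wild-type zebrafish, the site of blood formation in this species, and were sorted from the fraction of low side scatter by 2 fluorescent reporters, gata2a:GFP and runx1:mCherry. Both reporters were carried by the fish behind all 3 populations, and the runx1 reporter is driven by a mouse Runx1 element. The populations were gata2a+ runx1+ cells, which the labels call HSCs (hematopoietic stem cells), gata2a- runx1+ cells, labelled as progenitors primed toward erythroid or myeloid fates, and gata2a+ runx1- cells, labelled as progenitors primed toward the lymphoid fate. Each population had 1 library, so the differences below have no check by replicates, and the number of fish behind a library is not given in the sources used here. The libraries held 8123636 reads on genes in the gata2a+ runx1+ library, 8205803 reads in the gata2a- runx1+ library and 8094670 reads in the gata2a+ runx1- library. RPM is the reads of a gene per 1000000 reads counted on all genes, and 3 reads, the floor used for detection, were between 0.366 and 0.371 RPM. Intervals are at 95% and cover counting error only, since PCR copies are not independent molecules.

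A cytosolic ribosome holds 1 copy of nearly every ribosomal protein, arranged around ribosomal RNA. The small subunit reads the mRNA, and the large subunit forms the peptide bonds and carries a flexible stalk that receives the elongation factors. In vertebrates, mRNAs of ribosomal proteins start with a pyrimidine tract through which mTOR signalling controls their translation, so the level of the mRNA is not the rate at which the protein is made. Loss of 1 copy of a ribosomal protein gene causes Diamond-Blackfan anemia in humans, in which red cell precursors are reduced.

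Ribosomal protein mRNAs took 9.35% of all reads in the gata2a+ runx1+ library (95% Wilson interval 9.33 to 9.37), 13.2% in the gata2a- runx1+ library (13.2 to 13.3) and 7.74% in the gata2a+ runx1- library (7.72 to 7.75). The summed level was 93463 RPM in the gata2a+ runx1+ library, 132461 RPM in the gata2a- runx1+ library and 77364 RPM in the gata2a+ runx1- library. The share was thus highest in the gata2a- runx1+ library. The ratio of the summed levels was 0.706 for gata2a+ runx1+ over gata2a- runx1+ cells, 1.21 for gata2a+ runx1+ over gata2a+ runx1- cells and 1.71 for gata2a- runx1+ over gata2a+ runx1- cells. RPM is relative to the other transcripts, and a larger share of the mRNA cannot be told apart from more ribosomal protein mRNA per cell.

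Of the 83 genes, 78 reached a mean RPM of 1 over the 3 libraries (44 large and 34 small subunit genes) and were compared one by one, as were 12339 genes of all kinds that reached it. The highest value lay in the gata2a- runx1+ library for 77 of the 78 genes and in the gata2a+ runx1+ library for 1 gene, rps27.2. Among all 12339 genes, the gata2a- runx1+ library was highest for 31.6% and the gata2a+ runx1+ library for 31% of genes. After rescaling by edgeR or DESeq2 factors, 76 of the 78 genes were highest in the gata2a- runx1+ library and 1 in each other library.

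**Figure D1:**
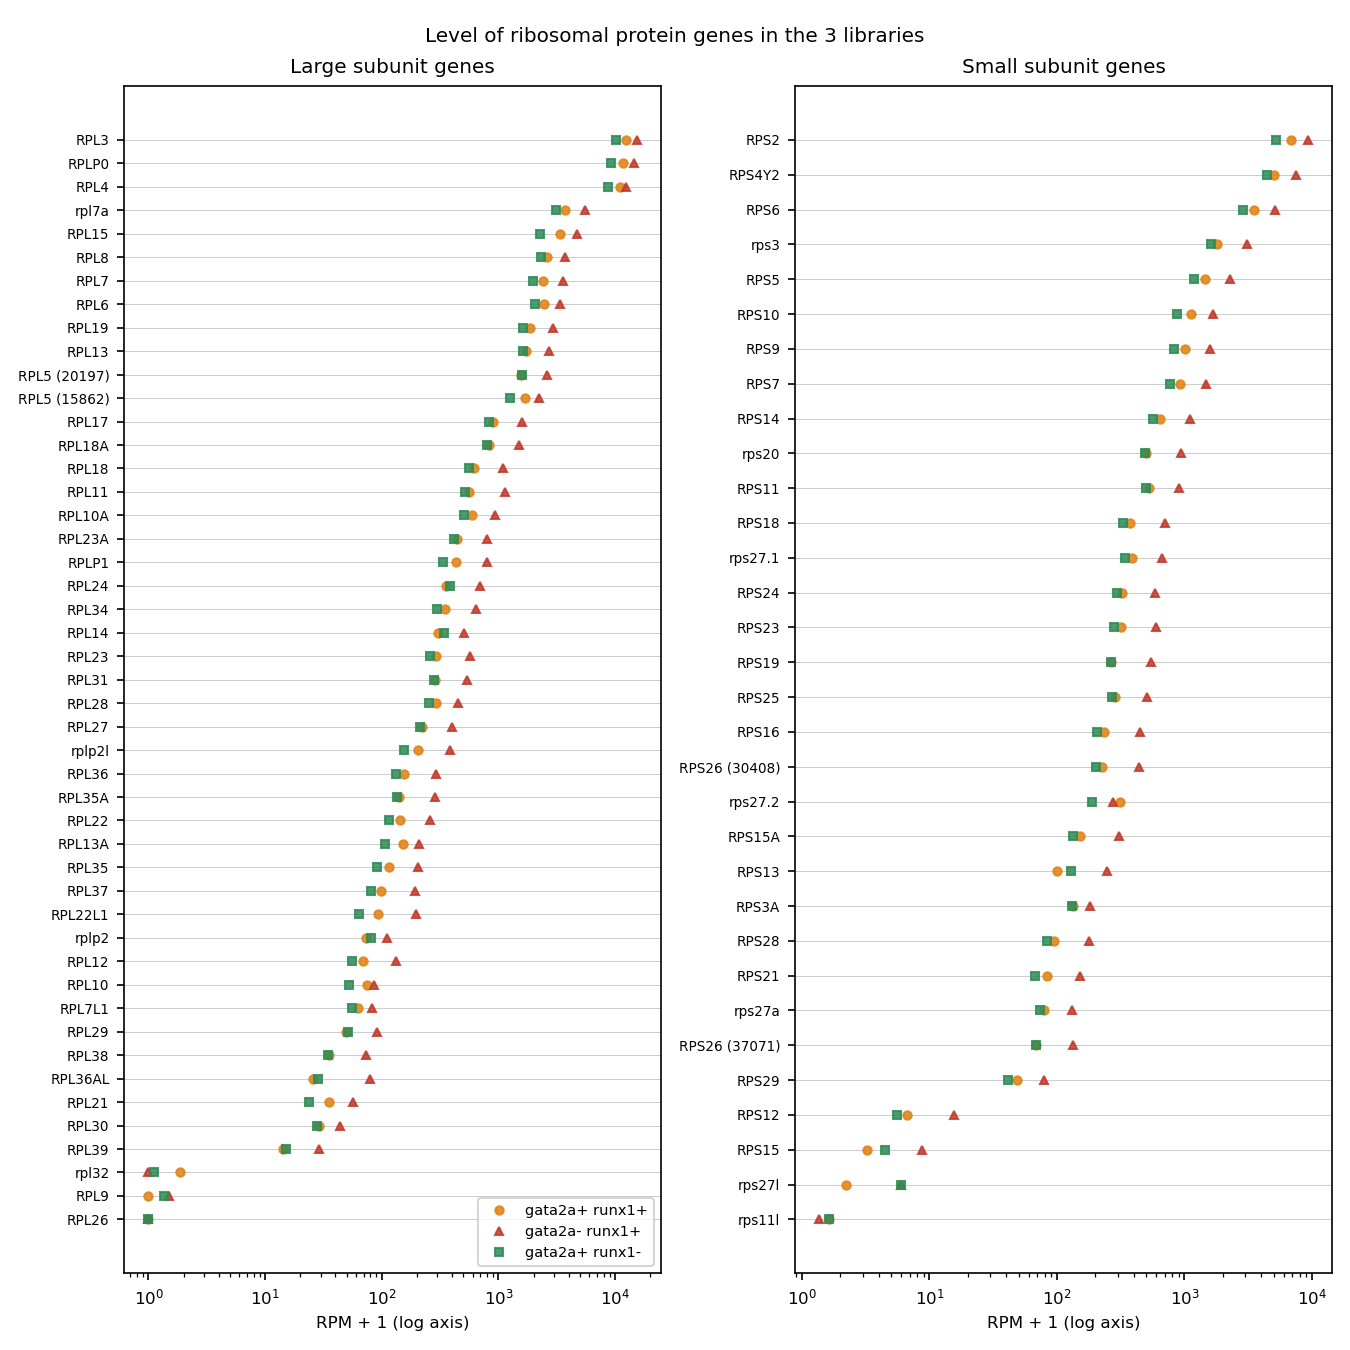
Level of 79 of the 83 ribosomal protein genes as RPM + 1 on a log axis, large subunit on the left and small subunit on the right, with 1 point per library (circle gata2a+ runx1+, triangle gata2a- runx1+, square gata2a+ runx1-). Triangles lie farthest right for 74 of the 75 drawn genes that reached a mean of 1 RPM, and numbers in brackets are the last 5 digits of the identifier of genes that share a symbol.

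The difference between libraries was taken on the log2(RPM + 1) scale, which understates the change of low genes. Between the gata2a+ runx1+ and the gata2a- runx1+ library, 77 of 78 genes were lower and 1 was higher, whereas 44.7% of all genes tested were lower by any amount. The median difference was -0.82, against 0.07 over all genes tested, and 50% of the ribosomal protein genes lay between -0.93 and -0.61. A difference over 2-fold, the limit the study used for enrichment, was met downward by 12 of the 78 genes or 15.4% (background 9.93%) and upward by 0 of 78 (background 16.2%). The direction was shared by nearly all members, while few of them passed 2-fold. That count moved with the scaling, with 21 genes over 2-fold lower after DESeq2 factors (background 10.9%) and 19 relative to the reads of all other genes (background 11.2%).

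Between the gata2a- runx1+ and the gata2a+ runx1- library, all 78 genes were higher in the gata2a- runx1+ library, against 49.3% of all genes tested. The median difference was 0.94, against -0.01 over all genes tested. Of the 78 genes, 27 or 34.6% were over 2-fold higher (background 18.1%) and 0 were over 2-fold lower (background 23.6%). The count over 2-fold higher was 48 relative to the reads of all other genes (background 20.2%). Under edgeR and DESeq2 factors it was 26 (backgrounds 17.8% and 17.7%), and 0 genes were over 2-fold lower (backgrounds 23.9% and 24.1%). Under these factors 1 gene, rps27l, was lower by any amount, with differences of only -0.0012 and -0.0085.

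Between the gata2a+ runx1+ and the gata2a+ runx1- library the family differed little. Here 67 of 78 genes were higher in the gata2a+ runx1+ library, against 51.8% of all genes tested, with a median difference of 0.19, against 0.05 over all genes tested. Among the 1490 other genes that reached a mean of 100 RPM the median difference was 0.15, close to the family's. Their direction was less shared, with 58.5% higher against 85.9% of the family. Of these genes 50% lay between -0.39 and 0.57, against 0.07 and 0.30 for the family. None of the 78 genes was over 2-fold higher (background 17.5%) and 1 gene, rps27l, was over 2-fold lower (background 19.1%). The number of higher genes was 58 after edgeR factors and 54 after DESeq2 factors, against 49.6% and 48.4% of all genes tested. Each library takes part in 2 of these 3 comparisons, so they are not independent of each other.

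**Figure D2:**
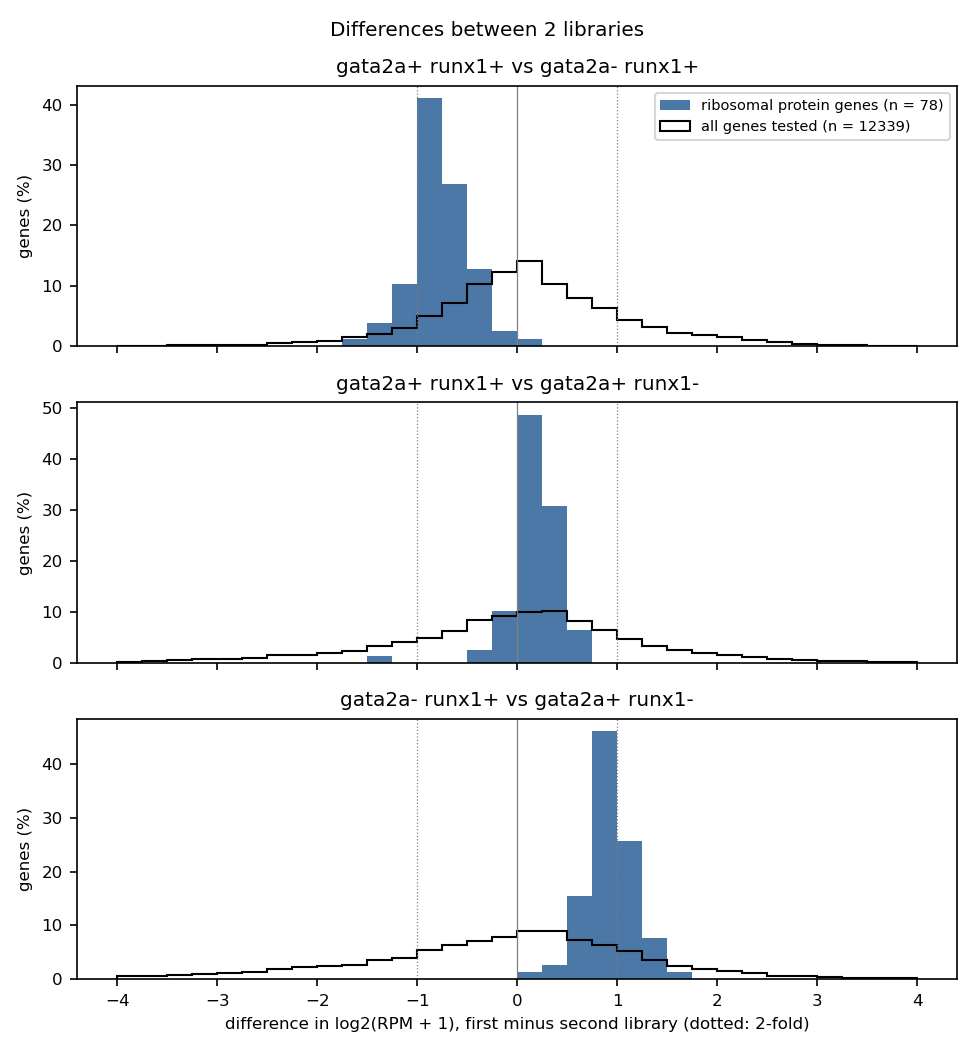
Share of genes (%) by the difference in log2(RPM + 1) in bins of 0.25, first minus second library, for 78 ribosomal protein genes (filled) and all 12339 genes tested (line), with dotted lines at 2-fold. The members form a narrow peak around a median of -0.82, 0.19 and 0.94 from top to bottom, while the median of all genes was 0.07, 0.05 and -0.01.

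The libraries also differed in markers of cell types. Summed erythroid markers (7 genes) were at 324.5 RPM in the gata2a+ runx1+ library, 2863 RPM in the gata2a- runx1+ library and 5.07 RPM in the gata2a+ runx1- library, with alas2 and a second gene under the symbol SLC4A1 at 0 in both runx1+ libraries and gata1a, klf1, EPOR and alas2 at 0 in the gata2a+ runx1- library. Most of these sums came from SLC4A1 (ENSDARG00000012881), the anion exchanger of red cells, with 267.5 RPM in the gata2a+ runx1+ library, 2463 RPM in the gata2a- runx1+ library and 4.2 RPM in the gata2a+ runx1- library. Above the floor were 5 of the 7 genes in each runx1+ library and 2 in the gata2a+ runx1- library. The 3 thrombocyte markers summed to 68.4 RPM in the gata2a+ runx1+ library, 541.8 RPM in the gata2a- runx1+ library and 5.69 RPM in the gata2a+ runx1- library. Of these, itga2b and GP1BB were highest in the gata2a- runx1+ library. The third, mpl, was highest in the gata2a+ runx1+ library, with 5.91 RPM, 2.92 RPM and 0.25 RPM in the same order. The 4 HSC markers, all above the floor in each library, summed to 741.2 RPM in the gata2a+ runx1+ library, 254.8 RPM in the gata2a- runx1+ library and 27.06 RPM in the gata2a+ runx1- library. B cell markers (5 genes) summed to 71.2 RPM in the gata2a+ runx1+ library, 13.4 RPM in the gata2a- runx1+ library and 2220 RPM in the gata2a+ runx1- library, with PAX5 and RAG1 at 0 in both runx1+ libraries. The 6 proliferation markers summed to 4988 RPM in the gata2a+ runx1+ library, 4619 RPM in the gata2a- runx1+ library and 2335 RPM in the gata2a+ runx1- library. Macrophage markers (13 genes) summed to at most 36.2 RPM and T cell markers (4 genes) to at most 17.1 RPM in any library. A neutrophil list was planned but not used, since only 1 of its 2 symbols was found. Neutrophil genes are thus not covered by these sums. Endothelial markers (3 genes) summed to 1489 RPM in the gata2a+ runx1+ library, 519.6 RPM in the gata2a- runx1+ library and 160.5 RPM in the gata2a+ runx1- library. FLI1, which blood cells also express, was the only one above the floor in both runx1+ libraries, and kdrl was at 0 there. In the gata2a+ runx1- library all 3 were above the floor, with kdrl at 85.6 RPM, FLI1 at 60.2 RPM and cdh5 at 14.7 RPM. The fall of the sum thus came from FLI1, while kdrl and cdh5 were highest in the gata2a+ runx1- library. Kidney tubule markers (6 genes) summed to 692.4 RPM in the gata2a+ runx1+ library, 738.5 RPM in the gata2a- runx1+ library and 455.7 RPM in the gata2a+ runx1- library. Nearly all of these sums came from 1 SLC20A1 gene (ENSDARG00000010641), with 690.45 RPM, 722.66 RPM and 449.43 RPM in the same order. Another SLC20A1 gene (ENSDARG00000020114) had 0.74 RPM, 15.84 RPM and 0 RPM. Which of them is the planned marker slc20a1a was not settled, and the presence of tubule cells was not tested. CDH17 and SLC12A3 were at 0 in both runx1+ libraries, and SLC12A3 was also at 0 in the gata2a+ runx1- library. The gata2a- runx1+ library, which had the largest ribosomal protein share, also had the largest sum of erythroid and thrombocyte markers. The smallest share went with the lowest sum of proliferation markers. The largest share did not go with the highest such sum, which lay in the gata2a+ runx1+ library. The part of these cells in the differences was not tested.

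The large subunit genes took 6.46% of reads in the gata2a+ runx1+ library, 8.82% in the gata2a- runx1+ library and 5.33% in the gata2a+ runx1- library. Small subunit genes took 2.88% in the gata2a+ runx1+ library, 4.43% in the gata2a- runx1+ library and 2.40% in the gata2a+ runx1- library. The ratio of large to small subunit reads was 2.24 in the gata2a+ runx1+ library (95% interval 2.23 to 2.25), 1.99 in the gata2a- runx1+ library (1.98 to 1.998) and 2.22 in the gata2a+ runx1- library (2.21 to 2.23). The lower ratio in the gata2a- runx1+ library went beyond counting error. In the summed reads it was no longer seen without 3 large subunit genes, RPL3, RPLP0 and RPL4. The ratio without them was 1.02 in the gata2a+ runx1+ library, 1.03 in the gata2a- runx1+ library and 1.04 in the gata2a+ runx1- library. RPSA2 was not counted in the small subunit, and the ratio with it was not computed. The ratio of the subunits' median RPM was 1.03 in the gata2a+ runx1+ library, 0.956 in the gata2a- runx1+ library and 1.06 in the gata2a+ runx1- library, again lowest in the gata2a- runx1+ library. The median difference of single genes was close between the subunits. It was, between the gata2a+ runx1+ and the gata2a- runx1+ library, -0.82 for the large and -0.81 for the small subunit. Between the gata2a- runx1+ and the gata2a+ runx1- library these medians were 0.92 for the large and 0.95 for the small subunit.

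RPL3, RPLP0 and RPL4 had the highest mean RPM of the family. RPM takes no account of transcript length, so an order of RPM between genes is not an order of mRNA molecules. RPL3 (ENSDARG00000003599), which lies near the site of peptide bond formation, had 12396 RPM in the gata2a+ runx1+ library, 15330 RPM in the gata2a- runx1+ library and 10241 RPM in the gata2a+ runx1- library. RPLP0 (ENSDARG00000051783), the base of the stalk, had 11695 RPM in the gata2a+ runx1+ library, 14527 RPM in the gata2a- runx1+ library and 9253 RPM in the gata2a+ runx1- library. RPL4 (ENSDARG00000041182), which lines the exit tunnel of the nascent chain, had 11090 RPM in the gata2a+ runx1+ library, 12484 RPM in the gata2a- runx1+ library and 8735 RPM in the gata2a+ runx1- library. All 3 were highest in the gata2a- runx1+ library, but by less than the rest of the family. Together their ratio of the gata2a+ runx1+ over the gata2a- runx1+ library was 0.831 (95% interval 0.827 to 0.835), against 0.647 (0.644 to 0.649) for the other 80 genes. They held 37.6% of the family's reads in the gata2a+ runx1+ library, 32.0% in the gata2a- runx1+ library and 36.5% in the gata2a+ runx1- library.

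The next of the large subunit were rpl7a and RPL15. rpl7a (ENSDARG00000019230) had 3751 RPM in the gata2a+ runx1+ library, 5564 RPM in the gata2a- runx1+ library and 3086 RPM in the gata2a+ runx1- library. RPL15 (ENSDARG00000009285) had 3376 RPM in the gata2a+ runx1+ library, 4710 RPM in the gata2a- runx1+ library and 2293 RPM in the gata2a+ runx1- library. RPL15 was one of the members with the largest excess of the gata2a+ runx1+ over the gata2a+ runx1- library, with a difference of 0.56.

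Among the small subunit genes that met the rule RPS2 had the highest mean RPM. RPSA2, which was left out, had more RPM in each library. RPS2 (ENSDARG00000077291), near the entry of the mRNA channel, had 6896 RPM in the gata2a+ runx1+ library, 9244 RPM in the gata2a- runx1+ library and 5189 RPM in the gata2a+ runx1- library. The gene listed as RPS4Y2 (ENSDARG00000014690) had 5056 RPM in the gata2a+ runx1+ library, 7538 RPM in the gata2a- runx1+ library and 4467 RPM in the gata2a+ runx1- library. Both kept the order of the family. RPS6 (ENSDARG00000019778), the substrate of the S6 kinases, had 3480 RPM in the gata2a+ runx1+ library, 5131 RPM in the gata2a- runx1+ library and 2855 RPM in the gata2a+ runx1- library. For rps3 (ENSDARG00000103007), which also takes part in DNA repair in mammals, the values were 1798 RPM in the gata2a+ runx1+ library, 3086 RPM in the gata2a- runx1+ library and 1626 RPM in the gata2a+ runx1- library. The difference between the gata2a+ runx1+ and the gata2a- runx1+ library was -0.42 for RPS2, -0.58 for RPS4Y2, -0.56 for RPS6 and -0.78 for rps3.

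Members with more reads differed less between the runx1+ libraries. In the 26 genes of highest mean RPM (734 to 12655 RPM) the median difference of gata2a+ runx1+ minus gata2a- runx1+ cells was -0.61, in the middle 26 genes it was -0.90, and in the 26 genes of lowest mean RPM (3.72 to 185.1 RPM) it was also -0.90. Across the 78 genes, which share both libraries and are not independent replicates, the difference went with log2 of the mean RPM (Pearson r = 0.55, Spearman rho = 0.49). Over the 74 genes with a mean of 20 RPM or more r was 0.42 and rho 0.41. Among the 1490 other genes with at least 100 RPM, a higher minimum than for the members, these values were 0.07 and 0.03. For the 78 members they were 0.41 and 0.23 over gata2a+ runx1+ minus gata2a+ runx1- cells. They were -0.20 and -0.33 over gata2a- runx1+ minus gata2a+ runx1- cells. Over gata2a- runx1+ minus gata2a+ runx1- cells the medians were 0.85 in the highest, 0.99 in the middle and 0.96 in the lowest 26 genes.

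**Figure D3:**
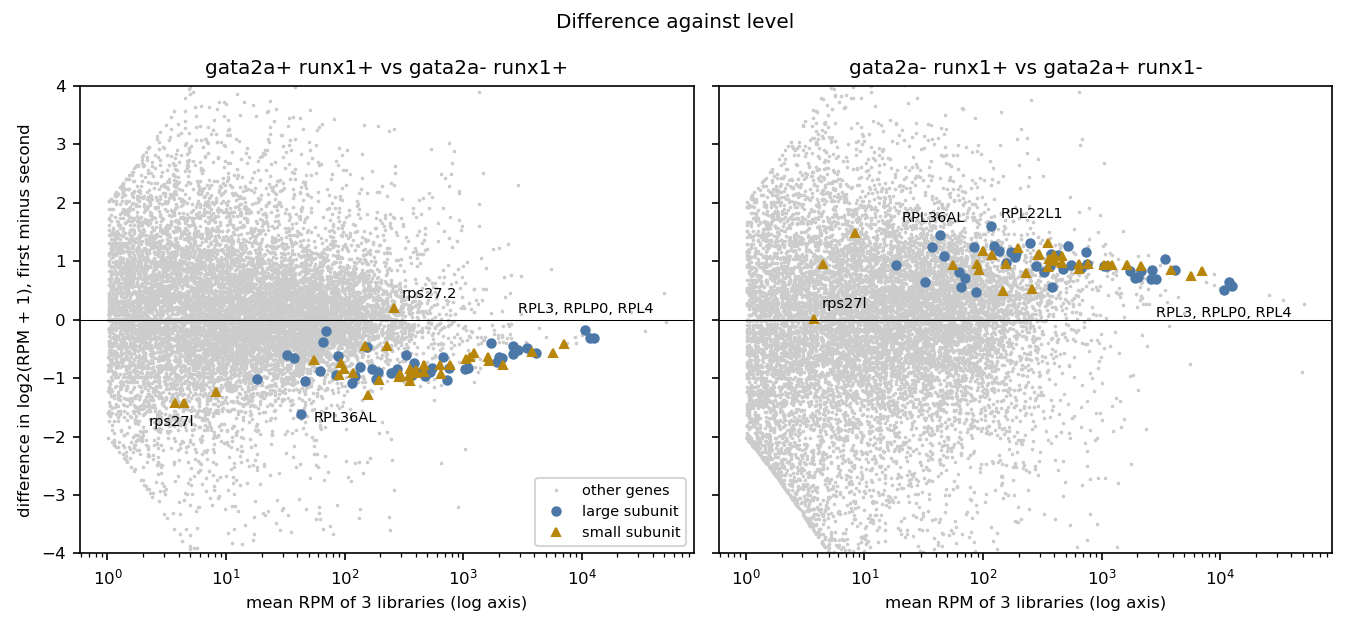
Difference in log2(RPM + 1) against mean RPM (log axis) for large subunit genes (circles), small subunit genes (triangles) and other genes (grey, drawn between -4 and 4), with gata2a+ runx1+ against gata2a- runx1+ cells on the left and gata2a- runx1+ against gata2a+ runx1- cells on the right. On the left the median is -0.90 in both the lowest and the middle 26 members and -0.61 in the highest 26. RPL4 lies at -0.17, and rps27.2 is the only member above 0.

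The stalk genes followed the family with 1 exception. RPLP1 (ENSDARG00000021864), a tip protein of the stalk, had 429.0 RPM in the gata2a+ runx1+ library, 801.8 RPM in the gata2a- runx1+ library and 332.6 RPM in the gata2a+ runx1- library. Its partner rplp2l (ENSDARG00000011201) had 204.8 RPM in the gata2a+ runx1+ library, 385.6 RPM in the gata2a- runx1+ library and 154.8 RPM in the gata2a+ runx1- library. Both were over 2-fold higher in the gata2a- runx1+ than in the gata2a+ runx1- library. The other copy, rplp2 (ENSDARG00000101406), had 71.8 RPM in the gata2a+ runx1+ library, 110.5 RPM in the gata2a- runx1+ library and 79.4 RPM in the gata2a+ runx1- library. It was the one stalk gene that was not higher in the gata2a+ runx1+ than in the gata2a+ runx1- library.

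RPL5 and RPL11 join the 5S ribosomal RNA before it enters the large subunit, and in mammals the free complex binds MDM2, the inhibitor of p53. RPL11 (ENSDARG00000043509) had 553.6 RPM in the gata2a+ runx1+ library, 1137 RPM in the gata2a- runx1+ library and 511.3 RPM in the gata2a+ runx1- library. It was over 2-fold higher in the gata2a- runx1+ library than in each other library. The gene RPL5 with identifier ENSDARG00000015862 had 1690 RPM in the gata2a+ runx1+ library, 2227 RPM in the gata2a- runx1+ library and 1253 RPM in the gata2a+ runx1- library. The gene RPL5 with identifier ENSDARG00000020197 had 1575 RPM in the gata2a+ runx1+ library, 2609 RPM in the gata2a- runx1+ library and 1584 RPM in the gata2a+ runx1- library. The first was the higher of the pair in the gata2a+ runx1+ library and the lower in the other libraries.

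Genes with variants in Diamond-Blackfan anemia lay close to the median of the whole family. Of 22 such genes, 21 reached a mean of 1 RPM and RPL26 (ENSDARG00000102317) had 0 reads in all 3 libraries. Their median difference was -0.82 between the gata2a+ runx1+ and the gata2a- runx1+ library, 0.19 between the gata2a+ runx1+ and the gata2a+ runx1- library and 0.97 between the gata2a- runx1+ and the gata2a+ runx1- library, against -0.82, 0.19 and 0.94 for all 78 members. Past 2-fold, 4 of the 21 genes or 19.0% were lower in the gata2a+ runx1+ than in the gata2a- runx1+ library (background 9.93%), and 10 or 47.6% were higher in the gata2a- runx1+ than in the gata2a+ runx1- library (background 18.1%). RPS19 (ENSDARG00000030602), the gene most often affected in patients, had 264.4 RPM in the gata2a+ runx1+ library, 548.2 RPM in the gata2a- runx1+ library and 265.1 RPM in the gata2a+ runx1- library. RPL35A (ENSDARG00000088030), of the large subunit, had 138.9 RPM in the gata2a+ runx1+ library, 282.9 RPM in the gata2a- runx1+ library and 133.5 RPM in the gata2a+ runx1- library. RPS19 and RPL35A thus stood at nearly the same level in both gata2a+ libraries and over 2-fold above it in the gata2a- runx1+ library. RPS15A (ENSDARG00000010160), of the small subunit, had 150.3 RPM in the gata2a+ runx1+ library, 307.7 RPM in the gata2a- runx1+ library and 131.6 RPM in the gata2a+ runx1- library. The small subunit genes RPS24, RPS7, RPS10, RPS28 and RPS29 had differences between -0.91 and -0.56 from the gata2a- runx1+ library, and the large subunit genes RPL18, RPL31 and RPL35 between -0.90 and -0.81.

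A gene over 2-fold higher in 1 library than in each other library was counted as enriched. The methods of the study also used over 2-fold, but do not state what each population was compared with. In the gata2a- runx1+ library 8 of 78 ribosomal protein genes met this (background 5.28%), and 0 met it in the gata2a+ runx1+ library (background 5.7%) or in the gata2a+ runx1- library (background 14.3%). The 8 genes were RPL11, RPL22L1, RPL35A, RPL36AL, RPL38, RPS12, RPS15A and RPS19, of which RPL36AL, RPL38 and RPS12 are named here after their values were seen. RPL36AL (ENSDARG00000058105), a large subunit gene, had the largest of these differences from the gata2a+ runx1+ library. It had 24.7 RPM in the gata2a+ runx1+ library, 77.5 RPM in the gata2a- runx1+ library and 27.7 RPM in the gata2a+ runx1- library, a difference of -1.61 between the runx1+ libraries. RPS12 (ENSDARG00000036875), of the small subunit, rested on 46 reads in the gata2a+ runx1+ library, 120 reads in the gata2a- runx1+ library and 37 reads in the gata2a+ runx1- library.

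Fisher's exact test on each gene's reads, adjusted by Benjamini-Hochberg over the 12339 genes, compares single libraries and not populations. It called 78 of 78 members between the gata2a+ runx1+ and the gata2a- runx1+ library (background 62.7%), 59 between the gata2a+ runx1+ and the gata2a+ runx1- library (background 71.6%) and 77 between the gata2a- runx1+ and the gata2a+ runx1- library (background 73.9%). Around the family's shared shift, single genes differed by more than counting error. The exact interval of the ratio lay above the members' median ratio for 31 genes and below it for 24 of 78 between the gata2a+ runx1+ and the gata2a- runx1+ library. Between the gata2a+ runx1+ and the gata2a+ runx1- library it lay above for 25 and below for 23 genes, and between the gata2a- runx1+ and the gata2a+ runx1- library above for 26 and below for 27 genes. Without replicates, this spread cannot be told apart from amplification noise. A gene over 1 (log2) away from the members' median was taken as standing apart, and 2 genes did so in 1 comparison each.

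The first was rps27.2 (ENSDARG00000055475), one of the copies of the gene for the small subunit protein S27. It had 313.8 RPM in the gata2a+ runx1+ library, 273.6 RPM in the gata2a- runx1+ library and 188.9 RPM in the gata2a+ runx1- library. It was the only one of the 78 genes tested with its highest value in the gata2a+ runx1+ library. Its difference between the runx1+ libraries was 0.20, or 1.01 above the members' median, and its ratio of 1.15 was the highest of the 78 genes. The distance fell under 1 when the median was taken over genes with at least 10 RPM. The other copy, rps27.1 (ENSDARG00000023298), kept the family's order with 387.4 RPM in the gata2a+ runx1+ library, 667.5 RPM in the gata2a- runx1+ library and 339.7 RPM in the gata2a+ runx1- library. Of the reads on both copies, rps27.2 held 44.8% in the gata2a+ runx1+ library (95% exact interval 43.5 to 46.1), 29.1% in the gata2a- runx1+ library (28.1 to 30.1) and 35.7% in the gata2a+ runx1- library (34.3 to 37.2). The 3 intervals did not overlap.

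The second was rps27l (ENSDARG00000100513), an S27-like gene whose mammalian counterpart is a target of p53. It had few reads, with 10 reads in the gata2a+ runx1+ library, 41 reads in the gata2a- runx1+ library and 40 reads in the gata2a+ runx1- library. These are 1.23 RPM in the gata2a+ runx1+ library, 5.0 RPM in the gata2a- runx1+ library and 4.94 RPM in the gata2a+ runx1- library. The gene was thus low in the gata2a+ runx1+ library and level in the other libraries, with a difference of -1.41 from the gata2a+ runx1- library, or -1.603 from the members' median. With a pseudocount of 10 this difference was -0.41. Between the gata2a- runx1+ and the gata2a+ runx1- library its difference was 0.01, the smallest of the 78 genes.

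Several members are copies of each other, and reads that match both can be split in a way the sources used here do not give. Their shares are therefore uncertain between copies, while their sum is less so. RPL22L1 (ENSDARG00000010244), the paralogue of RPL22, held 39.0% of the pair's reads in the gata2a+ runx1+ library (95% exact interval 36.8 to 41.2), 43.0% in the gata2a- runx1+ library (41.4 to 44.6) and 35.5% in the gata2a+ runx1- library (33.0 to 38.0). In zebrafish and mouse these paralogues are known to have opposed roles in blood development. RPL22L1 had 91.2 RPM in the gata2a+ runx1+ library, 193.9 RPM in the gata2a- runx1+ library and 63.3 RPM in the gata2a+ runx1- library. Its difference of 1.601 between the gata2a- runx1+ and the gata2a+ runx1- library was the largest of the 78 genes. RPL22 (ENSDARG00000070437) had 142.7 RPM in the gata2a+ runx1+ library, 257.1 RPM in the gata2a- runx1+ library and 115.1 RPM in the gata2a+ runx1- library, a difference of 1.15 in that comparison.

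The copy rplp2 held 25.9% of the reads on rplp2 and rplp2l in the gata2a+ runx1+ library (95% exact interval 24.1 to 27.8), 22.3% in the gata2a- runx1+ library (21.0 to 23.6) and 33.9% in the gata2a+ runx1- library (31.8 to 36.1). This share was highest in the gata2a+ runx1- library. The RPL5 gene ENSDARG00000015862 held 51.8% of its pair's reads in the gata2a+ runx1+ library, 46.1% in the gata2a- runx1+ library and 44.2% in the gata2a+ runx1- library. The RPS26 gene ENSDARG00000030408 held 76.6% in the gata2a+ runx1+ library, 76.9% in the gata2a- runx1+ library and 75.1% in the gata2a+ runx1- library, and a difference was not detectable at this depth. RPL7L1 (ENSDARG00000042864), a paralogue of RPL7, held between 2.21% and 2.66% of the reads on both genes in the 3 libraries.

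**Figure D4:**
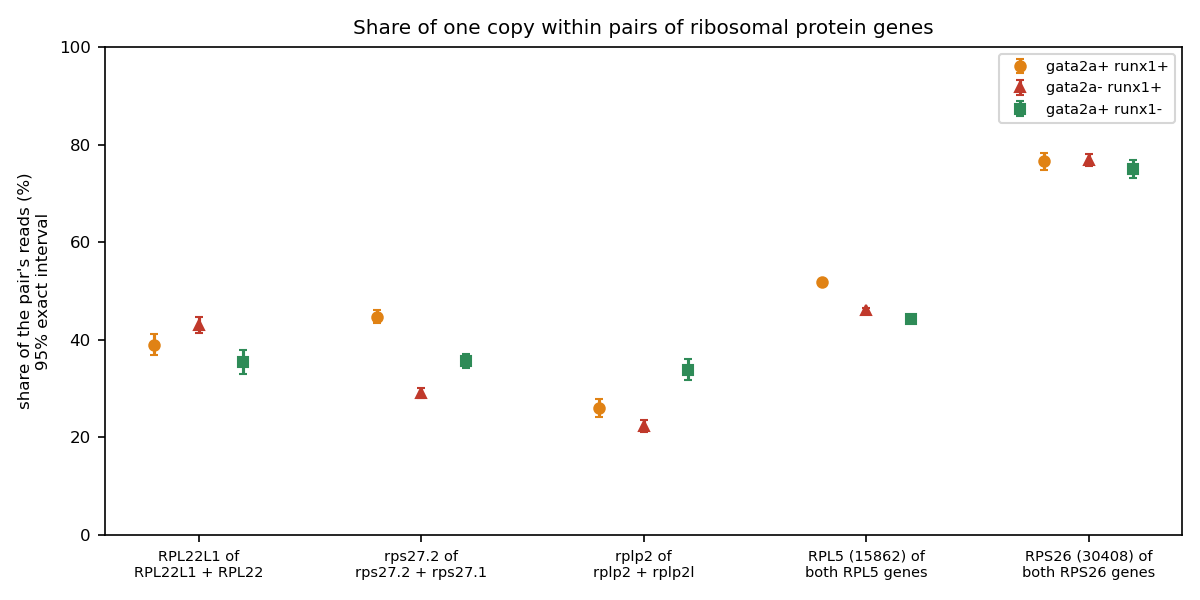
Share (%) of one copy in the reads on both genes of 5 pairs, with 95% exact intervals for counting error, for gata2a+ runx1+ (circle), gata2a- runx1+ (triangle) and gata2a+ runx1- cells (square). The share of rps27.2 was 44.8% in the gata2a+ runx1+ library and 29.1% in the gata2a- runx1+ library, while that of the RPS26 gene lay between 75.1% and 76.9% in all 3 libraries.

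The remaining 5 genes were under a mean of 1 RPM, and 4 of them are given here. RPL26 had 0 reads in all 3 libraries. RPL9 (ENSDARG00000037350) had 0 reads in the gata2a+ runx1+ library, 4 in the gata2a- runx1+ library and 3 in the gata2a+ runx1- library, and rpl32 (ENSDARG00000054818) had 7 reads in the gata2a+ runx1+ library, 0 in the gata2a- runx1+ library and 1 in the gata2a+ runx1- library. The gene rps11l (ENSDARG00000093606) had 5 reads in the gata2a+ runx1+ library, 3 in the gata2a- runx1+ library and 5 in the gata2a+ runx1- library. RPL9, RPL26 and rpl32 encode core proteins of the large subunit, so a listing near 0 is no measure of whether the cells made them, and no fold is given.

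Genes that make or use ribosomes were set beside the family. Of 78 ribosome biogenesis genes that reached a mean of 1 RPM, which process ribosomal RNA and assemble the subunits, 4 or 5.13% were over 2-fold lower (background 9.93%) and 0 over 2-fold higher (background 16.2%) in the gata2a+ runx1+ than in the gata2a- runx1+ library, with a median difference of -0.36. Between the gata2a+ runx1+ and the gata2a+ runx1- library 15 or 19.2% were over 2-fold higher (background 17.5%) and 0 lower (background 19.1%), with a median of 0.66, against 0.19 for the ribosomal protein genes. Between the gata2a- runx1+ and the gata2a+ runx1- library 45 or 57.7% were over 2-fold higher (background 18.1%) and 1 lower (background 23.6%), with a median of 1.04. Whether these medians differ from those of the ribosomal protein genes was not tested. NOP56, a core protein of the particles that methylate ribosomal RNA, had 1124 RPM in the gata2a+ runx1+ library, 1428 RPM in the gata2a- runx1+ library and 657.2 RPM in the gata2a+ runx1- library. Of the 11 RNA polymerase I genes, which transcribe the ribosomal RNA genes, 0 were over 2-fold higher (background 16.2%) and 1 lower (background 9.93%) in the gata2a+ runx1+ than in the gata2a- runx1+ library, with a median of -0.34. Their median was 0.72 between the gata2a+ runx1+ and the gata2a+ runx1- library, with 1 gene over 2-fold higher (background 17.5%) and 0 lower, and 0.87 between the gata2a- runx1+ and the gata2a+ runx1- library, with 4 higher (background 18.1%) and 0 lower.

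Translation factors were set beside the family too. Over 39 initiation factor genes the median was -0.24 between the gata2a+ runx1+ and the gata2a- runx1+ library (1 over 2-fold higher, 2 lower, backgrounds 16.2% and 9.93%), 0.21 between the gata2a+ runx1+ and the gata2a+ runx1- library (1 higher, 2 lower, backgrounds 17.5% and 19.1%) and 0.47 between the gata2a- runx1+ and the gata2a+ runx1- library (5 higher, 2 lower, backgrounds 18.1% and 23.6%). The middle median lay close to the family's 0.19. Over 13 elongation factor genes the medians were -0.29 (1 higher, 0 lower), 0.18 (2 higher, 1 lower) and 0.38 (1 higher, 1 lower) in the same comparisons, with the same backgrounds. The spread of single genes was wider than in the family, for instance an SD of 0.67 over initiation factors and 0.27 over the 78 members between both gata2a+ libraries. eef1a1l1, which brings aminoacyl-tRNA to the ribosome, had 53350 RPM in the gata2a+ runx1+ library, 54895 RPM in the gata2a- runx1+ library and 45433 RPM in the gata2a+ runx1- library. Its difference of -0.04 between the runx1+ libraries was small beside the family's median of -0.82.

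The genes for the ribosomal proteins of mitochondria lie in the nucleus, while their products work in a separate ribosome inside that organelle. Among the lists outside the family, these genes had the median closest to the family's between the runx1+ libraries. Of 67 such genes, 23 or 34.3% were over 2-fold lower (background 9.93%) and 0 higher (background 16.2%) in the gata2a+ runx1+ than in the gata2a- runx1+ library, with a median of -0.85. Between the gata2a+ runx1+ and the gata2a+ runx1- library 2 were over 2-fold higher (background 17.5%) and 4 lower (background 19.1%), with a median of -0.14. Between the gata2a- runx1+ and the gata2a+ runx1- library 23 or 34.3% were higher (background 18.1%) and 1 lower (background 23.6%), with a median of 0.77.

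**Figure D5:**
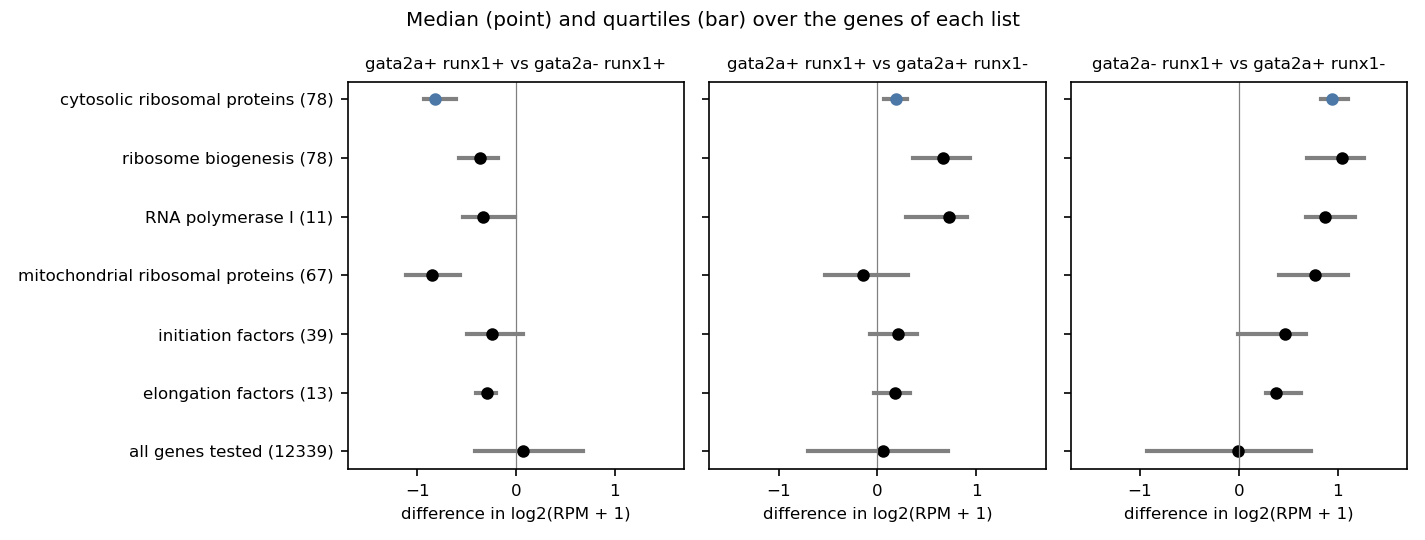
Median (point) and quartiles (bar) of the difference in log2(RPM + 1), first minus second library, over the genes of each list that reached a mean of 1 RPM, with the number of genes in brackets. The cytosolic ribosomal proteins lie at -0.82, 0.19 and 0.94 from left to right, and ribosome biogenesis genes at -0.36, 0.66 and 1.04.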

How the data were processed

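One RNA-seq library was made per population from sorted cells by whole-transcript amplification primed on poly-A tails. Per the labels and methods, HISAT2 2.1.0 placed the reads on GRCz11, and the authors took RPM from Subread 1.6.4. The annotation, the use of strand and the handling of reads with several matches are not given in the sources used here. The deposited RPM values, rounded to 2 decimals, matched whole numbers of reads for 100% of values, with recovered totals between 8094670 and 8205803 reads.

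Symbols came from a table that pairs identifiers with names, which named 28988 of 32057 genes. Shares have 95% Wilson intervals, shares of copies and ratios exact binomial intervals (scipy 1.17.1). Differences used log2(RPM + 1) of genes that reached a mean of 1 RPM, and the fold rule was over 2-fold. The reads could be put to a count test only between single libraries, and Fisher's exact test with Benjamini-Hochberg adjustment compares libraries and not populations. Named genes were those standing apart from the members' median, the 5 of highest mean RPM per subunit, stalk genes, copies, genes of Diamond-Blackfan anemia and genes without reads, and any other is named as chosen afterwards or comes from the lists. Members and lists were chosen with earlier results of these data known. Alternatives were edgeR 4.0.16 and DESeq2 1.42.0 factors in R 4.3.3, other minimum values, pseudocounts, fold limits and memberships. Lists with under 80% of symbols found were not used. No sequence or transcript length was used. Some genes, and 1 alternative set of members, are not reported here.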

Additional observations from a re-analysis of the deposited data

How the results depend on the processing

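With 1 library per population no replicate could be left out. No paired analysis was possible because each population had 1 library. Of 72 values recomputed for the comparisons, 43 moved, 29 stayed within their limits and 0 reversed. A reversal meant a change of sign. Shares, subunit ratios and counts cannot be negative, so only the median differences could have reversed. A changed order of the libraries was counted as moved, as for the subunit ratio without RPL3, RPLP0 and RPL4. With fau the share of reads was 9.37% for gata2a+ runx1+, 13.3% for gata2a- runx1+ and 7.76% for gata2a+ runx1-. Of a total without the 20 other genes with the most reads it was 12.4% for gata2a+ runx1+, 17.5% for gata2a- runx1+ and 10.2% for gata2a+ runx1-. Without members that have a copy it was 8.69% for gata2a+ runx1+, 12.2% for gata2a- runx1+ and 7.19% for gata2a+ runx1-. With RPSA2 it was 10.2% for gata2a+ runx1+, 14.3% for gata2a- runx1+ and 8.45% for gata2a+ runx1-. The ratio of large to small subunit by medians was 1.03 for gata2a+ runx1+, 0.956 for gata2a- runx1+ and 1.06 for gata2a+ runx1-. Without the stalk genes it was 1.81 for gata2a+ runx1+, 1.63 for gata2a- runx1+ and 1.81 for gata2a+ runx1-. Without the top gene of each subunit it was 2.38 for gata2a+ runx1+, 2.08 for gata2a- runx1+ and 2.29 for gata2a+ runx1-, and without RPL3, RPLP0 and RPL4 1.02 for gata2a+ runx1+, 1.03 for gata2a- runx1+ and 1.04 for gata2a+ runx1-. The count past 2-fold for gata2a+ runx1+ over gata2a- runx1+ (12 genes) was 59 at a fold limit of 1.5 and 5 with a pseudocount of 10. It was 6 at a mean of at least 100 RPM (background 3.55% lower) and 21 with DESeq2 factors (background 10.9% lower). Relative to other genes it was 19 (background 11.2% lower), and by Fisher's exact test 78 (background 62.7%). For gata2a+ runx1+ over gata2a+ runx1- (1 gene) the count was 2 at 1.5-fold and 0 with a pseudocount of 10. It was 0 at 100 RPM (backgrounds 10.6% higher and 10.5% lower) and 59 by Fisher's exact test (background 71.6%). For gata2a- runx1+ over gata2a+ runx1- (27 genes) it was 70 at 1.5-fold, 48 relative to other genes (background 20.2% higher) and 77 by Fisher's exact test (background 73.9%). The share of all genes at 1.5-fold and with a pseudocount of 10 was not counted, so those counts have no background. The median difference was 0.088 in place of 0.19 for gata2a+ runx1+ over gata2a+ runx1- with DESeq2 factors, and 1.03 in place of 0.94 for gata2a- runx1+ over gata2a+ runx1- relative to other genes, and no median changed sign. The genes standing apart by absolute difference numbered 12 for gata2a+ runx1+ over gata2a- runx1+ and 27 for gata2a- runx1+ over gata2a+ runx1-, and with a minimum of 10 RPM 0 for gata2a+ runx1+ over gata2a- runx1+ and 0 for gata2a+ runx1+ over gata2a+ runx1-. Of 72 values for single genes 70 kept their side of the limit, and rps27l with a pseudocount of 10 did not, at -0.42 and -0.41. The addition of fau or RPSA2, the removal of RPL3, RPLP0 and RPL4, Fisher's exact test, and the fold count relative to other genes were added after the data were seen. At a mean of at least 100 RPM 61 members were tested in place of 78. The background over 2-fold lower for gata2a+ runx1+ over gata2a- runx1+ was then 3.55% in place of 9.93%. The cause of the lower counts was not tested. With a minimum of 10 RPM rps27l was no longer tested. The gene rps27.2 was still tested then, and its distance fell under 1 because the members' median moved. Other causes were not tested.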

Other observations

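A list for the control of mRNAs that start with a pyrimidine tract held 11 genes that reached a mean of 1 RPM. It mixes MTOR itself, other genes of its signalling and repressors of translation. Some were low, such as larp1b with 0.74 RPM in the gata2a+ runx1+, 5.36 RPM in the gata2a- runx1+ and 1.61 RPM in the gata2a+ runx1- library. Of the 11 genes, 0 were over 2-fold higher and 3 lower in the gata2a+ runx1+ than in the gata2a- runx1+ library (16.2% and 9.93% of all genes tested). Between the gata2a+ runx1+ and the gata2a+ runx1- library 1 was higher and 0 lower (17.5% and 19.1% of all genes tested), and between the gata2a- runx1+ and the gata2a+ runx1- library 7 were higher and 0 lower (18.1% and 23.6% of all genes tested). EIF4EBP3 (ENSDARG00000041607), a repressor of cap-dependent initiation, had 15.4 RPM in the gata2a+ runx1+ library, 149.5 RPM in the gata2a- runx1+ library and 18.0 RPM in the gata2a+ runx1- library. MTOR, the kinase itself, had 38.5 RPM in the gata2a+ runx1+ library, 73.1 RPM in the gata2a- runx1+ library and 33.7 RPM in the gata2a+ runx1- library. Both were highest in the library with the largest ribosomal protein share. So were all other genes of the 11 except MLST8, EIF4EBP2 and eif4ebp1. Among all genes tested, that library was highest for 31.6%. EIF4EBP2 had 222.6 RPM in the gata2a+ runx1+ library, 183.7 RPM in the gata2a- runx1+ library and 161.7 RPM in the gata2a+ runx1- library. Over 9 genes of the p53 response the median difference was 0.25 between the gata2a+ runx1+ and the gata2a- runx1+ library, -0.15 between the gata2a+ runx1+ and the gata2a+ runx1- library and -0.06 between the gata2a- runx1+ and the gata2a+ runx1- library. The 12 other mRNAs known to start with a pyrimidine tract had medians of -0.40, 0.28 and 0.82 in these comparisons. An EEF1A1 gene (ENSDARG00000039502) had 56.99 RPM in the gata2a+ runx1+ library and 0 reads in both other libraries, which allows up to 0.366 RPM in the gata2a- runx1+ library and 0.371 RPM in the gata2a+ runx1- library.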
